A study of Callosobruchus maculatus with 24 samples.

Results

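The data described here are the mating comparison in the combined heads and thoraces of female Callosobruchus maculatus, a beetle that grows up inside the seeds of legumes. It rests on 6 of the 24 libraries of the study, 3 from mated and 3 from virgin females, which were chosen by the sex, body part and reproductive status that the labels give. Every beetle of the study belonged to the strain South India, and the labels give no other treatment and no genotype. The groups used beside these 6 libraries, also of 3 libraries each, were virgin and mated males for the same body part, and the abdomens of virgin and mated females and males. Frozen beetles were parted on ice so that the abdomen came away from the thorax, and RNA was taken from each portion. The sources used here do not give the age of the beetles, the mating regime or how many beetles were pooled for a library.

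In insects, mating commonly moves a female from searching for mates towards laying eggs, with changes in behaviour, feeding, immunity and receptivity to further matings. Seminal fluid proteins that the male transfers are among the known triggers, and they act on the nervous system and on organs far from the reproductive tract. The head holds the brain, the sense organs, glands and fat body, and the thorax holds flight and leg muscle, more fat body and part of the gut and nerve cord, so the libraries mix RNA of many tissues. In such bulk samples fewer cells of a type and less RNA per cell cannot be told apart.

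The 6 libraries held 8222877 to 9229870 counts each, and all 24 held 7805440 to 10171662. Of the 29812 genes listed, 4364 were without counts throughout. Genes carry assembly IDs that no file ties to a name or function, so results are given for 5 IDs and for groups of genes defined by their levels in other libraries. The first part of an ID names an assembly component, and genes that share it were assembled from related reads. Levels are CPM, a gene's counts relative to the library total after scaling by TMM factors (trimmed mean of M values, 0.965 to 1.09 in the 6 libraries). They depend on transcript length, which the files do not give, so a level is set against the same gene in other libraries, and a rank of genes by CPM or by share of counts is a rank of counts alone. The labels do not say that libraries of a group stem from separate cultures, and p-values therefore describe the spread among these samples alone, which may be technical. Mated libraries differed from each other by 5.82 to 9.17 in chi-square per degree of freedom, and virgin replicates 1 and 2 by 7.57, where sampling noise alone gives about 1. The pairs that include virgin replicate 3 differed more, by 19.8 and 15.4.

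Virgin replicate 3 stood apart through genes of the female abdomen. The labelled body part was checked with 4 lists of genes chosen on abdomens of both sexes and on male heads and thoraces alone, at a mean of at least 50 CPM where they are high and at most 1/16 of that where they are low. The 44 head and thorax genes summed to 17185, 15964 and 14239 CPM in mated replicates 1, 2 and 3 and to 18716, 15439 and 14423 CPM in virgin replicates 1, 2 and 3. These sums overlapped between the groups (ratio 0.976; exact two-sided permutation test, p = 0.9, where 3 against 3 libraries cannot give less than 0.1). Male heads and thoraces held 30247 CPM of the same list and female abdomens 197 CPM, so the labelled body part showed in all 6 libraries, at a lower sum than in males. The 398 male abdominal genes stayed between 794 and 1223 CPM in the 6 libraries (ratio 1.09; exact permutation test, p = 0.9), against 295669 CPM in male abdomens and 2499 CPM in male heads and thoraces.

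The 11 genes that are abdominal in both sexes summed to 87.3, 79.3 and 93.0 CPM in the mated libraries and to 90.8, 102 and 146 CPM in the virgin ones. Virgin replicate 3 was the highest of the 6, at 5.94% of the level in virgin female abdomens, while the other 5 lay between 3.22% and 4.13%. The ratio of mated to virgin sums was 0.765 (exact permutation test, p = 0.2), and 0.898 without that library. The 158 female abdominal genes summed to 147291, 155936 and 163372 CPM in mated libraries and to 87963, 93521 and 88852 CPM in virgin ones. Their ratio was 1.73 (exact permutation test, p = 0.1), and 1.71 without virgin replicate 3. Of the female abdominal list, 157 genes remain once the gene with the largest share of counts, described further on, is set aside. These summed to 4025, 3807 and 4011 CPM in mated libraries, to 3481 and 4203 CPM in virgin replicates 1 and 2, and to 10406 CPM in virgin replicate 3. Here too 1 library was far above the others, at 9.83% of the virgin abdomen against 3.29% to 3.97%, and 145 of the 157 genes had their highest value in it. The ratio was 0.655 with it (exact permutation test, p = 0.7) and 1.03 without it.

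**Figure D1:**
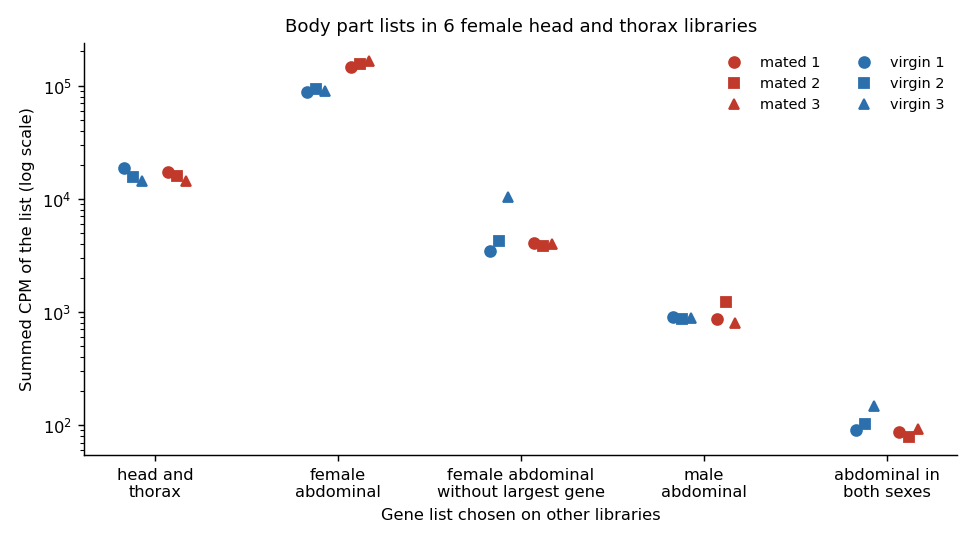
Summed CPM (log scale) of 4 body part lists, and of the female abdominal list without its gene with the largest share, in each of the 6 female head and thorax libraries. Red marks are mated and blue marks virgin libraries, and circles, squares and triangles are replicates 1, 2 and 3; the blue triangle lies above the other 5 marks at 10406 CPM for the 157 female abdominal genes and at 146 CPM for the 11 genes of both abdomens.

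The genes behind that sum were not raised alike. In virgin replicate 3, 24 genes with at least 10 CPM were at least 4-fold above every one of the other 5 libraries, where the same criterion gave 0, 4 and 11 genes in mated replicates 1, 2 and 3 and 3 and 1 in virgin replicates 1 and 2. Of the 24, 21 were on the female abdominal list and 22 were at least 8-fold higher in female abdomens than in male heads and thoraces. Together they held 4042 CPM in virgin replicate 3 and 42.2 to 241 CPM in the other 5. Set against their own levels in virgin female abdomens, 7 reached under 5%, 12 lay between 10% and 30% and 5 were over 30%, with a median of 17.5% and a range from 2.97% to 268%. The highest share came from a gene off the female abdominal list, with 4.01 CPM in virgin female abdomens. The shares thus varied among 24 genes picked for standing out in virgin replicate 3, and the cause was not tested. None of the 24 passed the edgeR test of mating, although 20 had an unadjusted p under 0.05 and DESeq2 called 10. Among the 24 these shares were 83.3% and 41.7%, and over all genes tested 11.6% and 3.87%. Having been chosen by virgin replicate 3, a library of that comparison, these genes cannot serve as a test of mating. Their median log2 fold change was -4.79 with virgin replicate 3 and -1.22 without it. The counts of genes called by edgeR, and those by list, sex, body part and abdominal response, are therefore also given without that library.

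In female heads and thoraces the number of genes called after mating was small and depended on the method. At an adjusted p of 0.05 or less in edgeR's quasi-likelihood test, 81 genes were higher in mated than in virgin females and 41 were lower, out of 13051 tested, which is 0.621% and 0.314% (0.935% for both). In each of the 122 the 3 mated libraries lay wholly above or wholly below the 3 virgin ones, a separation that 17.9% of all genes tested also had. The median log2 fold change was 0.57 among the genes that rose and -0.77 among those that fell, against -0.014 over all genes. The quartiles of the rises were 0.45 and 0.67, and 43 of the 81 (53.1%) were under 1.5-fold. The falls were steeper, with quartiles of -1.10 and -0.60 and 10 of 41 (24.4%) under 1.5-fold. At least 2-fold were 6 of the rises and 14 of the falls. Called genes lay at higher levels, with a median of 87.5 CPM for rises and 71.3 CPM for falls against 13.4 CPM over all genes. Low counts limit calls in any comparison. The shares set beside all genes here and below, also those of lists with a minimum CPM, were not matched for level. With library size alone as the scaling, the split was 57 higher and 124 lower, and all 122 genes kept their sign. DESeq2 called 248 higher and 257 lower, the fit of all 24 libraries 157 and 124, and the fit of the 6 libraries compared 24 and 16.

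**Figure D2:**
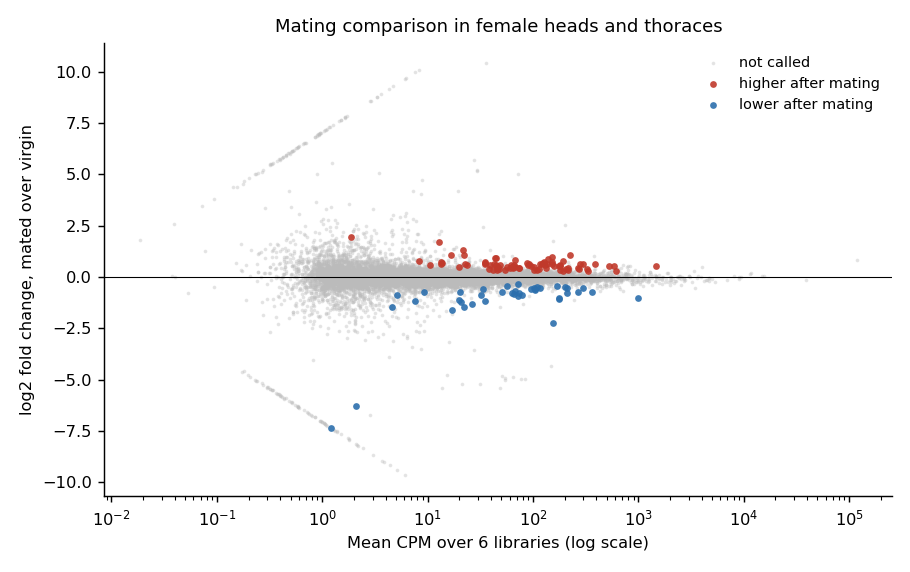
Mean CPM over the 6 libraries (log scale) against the log2 fold change of mated over virgin female heads and thoraces, with 1 point a gene tested, red for the 81 called higher, blue for the 41 called lower and grey for the rest. The 2 lowest blue points, at -6.30 and -7.37, are genes with 0 or 1 count in each mated library, and all other coloured points lie between -2.23 and 1.95.

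Without virgin replicate 3, 24 genes were called higher and 38 lower out of 13535 tested (0.177% and 0.281%, or 0.458% for both). Of the genes called with all libraries, 24 of 81 rises and 19 of 41 falls were among them. The other 57 and 22 missed the threshold, at adjusted p-values in edgeR from 0.0529 to 0.148 and from 0.055 to 0.112. All 122 kept their sign, which adds no support, since groups without overlap leave little room for another sign. The median of the rises moved from 0.57 to 0.52 and that of the falls from -0.77 to -0.83. No log2 fold change moved by more than 1.5 times, since the value without that library was 0.757 to 1.19 times the original for rises and 0.811 to 1.21 times for falls. A further 19 genes were called without it that had not been called before, all of them lower in mated females. Virgin replicate 3 was the lowest virgin library in 46 of the 81 rises and mated replicate 3 the highest mated library in 53. Over all 13051 genes tested with every library these counts were 4732 and 4182. Among the falls mated replicate 3 was the lowest mated library in 30 of 41 and virgin replicate 1 the highest virgin library in 27, against 4544 and 4578 of the 13051. The same libraries chose the called genes, which favours a library that widens the difference.

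**Figure D3:**
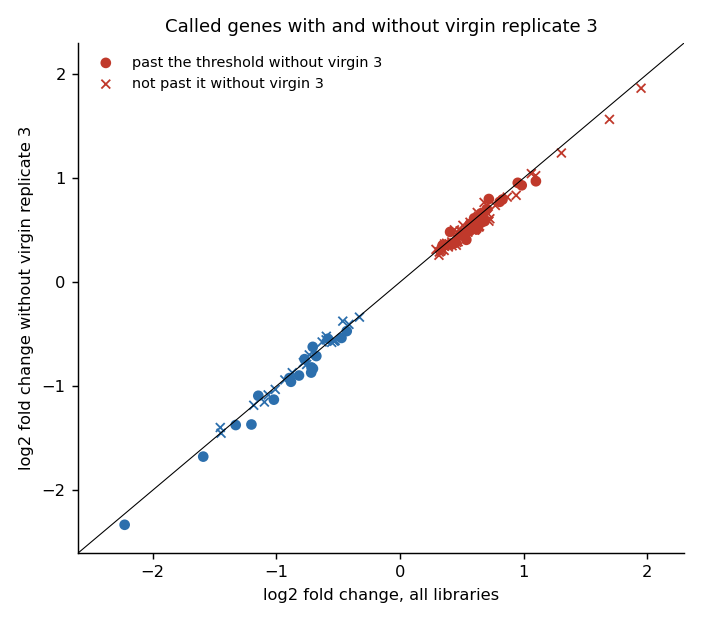
Log2 fold change of mated over virgin females with all libraries (horizontal) and without virgin replicate 3 (vertical) for the called genes, except 2 with 0 or 1 count in each mated library; red genes rose, blue genes fell, and the line marks equal values. Points keep close to the line, and crosses mark genes that missed the threshold without that library, 57 of the 81 rises and 22 of the 41 falls in all.

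Virgin replicate 3 was not the only library on which the number of calls rested. Without mated replicate 1 there were 26 calls (20 higher and 6 lower), without mated replicate 2 there were 34 (25 and 9), and without mated replicate 3 there were 36 (22 and 14). Leaving out virgin replicate 1 gave 51 calls (35 and 16), and leaving out virgin replicate 2 gave 64 (41 and 23). In each of these fits all 122 genes kept their sign, which the lack of overlap between the groups all but fixed in advance. Called in all 6 fits were 14 rises, with log2 fold changes of 0.49 to 1.10, and 5 falls, with log2 fold changes of -1.33 to -0.58.

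The called genes were set against the body part lists. At least 8-fold higher in female abdomens than in male heads and thoraces were 1 of the 81 rises and 1 of the 41 falls, against 4.77% of all genes tested. Without virgin replicate 3 they were 1 of 24 and 0 of 38, against 4.85% of all genes. Of the 128 female abdominal genes tested, edgeR called 1 higher and 0 lower, with that library and without it. At an unadjusted p under 0.05 were 29 of the 128 (22.7%), and DESeq2 called 15 (11.7%), where all genes had 11.6% and 3.87%. The unadjusted and DESeq2 counts by list were made with all libraries only. The median log2 fold change of the tested female abdominal genes was -0.39 with virgin replicate 3 and -0.051 without it. Of the 44 head and thorax genes edgeR called 1 higher and 1 lower, 4.55% where all genes had 0.935%. Without virgin replicate 3 it called 0 higher and 1 lower. At an unadjusted p under 0.05 were 17 of the 44 (38.6%), and DESeq2 called 10 (22.7%). Of the 9 genes tested on the list of both abdomens edgeR called 0, with 0 at an unadjusted p under 0.05 and 0 by DESeq2. Of the 143 male abdominal genes tested edgeR also called 0, with 4 at an unadjusted p under 0.05 and 0 by DESeq2.

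The 2 rises that were largest by the rule for naming genes belong to the same assembly component. TR70136|c1_g2 had 206, 181 and 216 CPM in mated replicates 1, 2 and 3 and 102, 107 and 95.4 CPM in virgin replicates 1, 2 and 3. The lowest mated library was thus well above the highest virgin one, and the means were 201 ± 17.9 and 101 ± 5.90 CPM (SD, n = 3 each). The log2 fold change was 0.98 (SE 0.0841, edgeR adjusted p = 0.00105), and 0.93 without virgin replicate 3 (adjusted p = 0.00578). In males the same body part held less of it, 63.2 ± 1.41 CPM in virgins and 61.3 ± 5.29 CPM in mated beetles (SD, n = 3 each).

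TR70136|c1_g3 had 31.0, 27.6 and 32.0 CPM in the mated libraries and 15.5, 15.1 and 11.6 CPM in the virgin ones, again without overlap. Its log2 fold change was 1.10 (SE 0.132, edgeR adjusted p = 0.00632), and 0.97 without virgin replicate 3 (adjusted p = 0.0200). Male heads and thoraces were lower at 6.84 ± 0.477 CPM in virgins and 8.22 ± 0.996 CPM in mated beetles (SD, n = 3 each). No source used here tells how reads common to genes of a component were divided, so these 2 rises need not be independent of each other. Each kept its call in all 20 alternative fits, the highest adjusted p being 0.0349 for TR70136|c1_g3 and 0.0269 for TR70136|c1_g2. In the transcript table the leading transcript of TR70136|c1_g2 had a log2 fold change of 0.80 with an edgeR adjusted p of 0.393. It held 61.7% of the gene's counts in mated replicate 2 and 92.9% to 99.5% in the other 5 libraries. The only transcript of TR70136|c1_g3 had a log2 fold change of 1.11 with an edgeR adjusted p of 0.0607.

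TR51689|c0_g2 fell the most of the genes that met the naming rule. It had 60.5, 73.8 and 30.4 CPM in mated replicates 1, 2 and 3 and 335, 211 and 219 CPM in virgin replicates 1, 2 and 3. Mated replicate 3 was the lowest and virgin replicate 1 the highest, and the groups were far apart at 54.9 ± 22.3 and 255 ± 69.5 CPM (SD, n = 3 each). The log2 fold change was -2.23 (SE 0.302, edgeR adjusted p = 0.0137), and -2.33 without virgin replicate 3 (adjusted p = 0.0288). Males had more of this gene in the same body part, 1347 ± 205 CPM in virgins and 1412 ± 134 CPM in mated beetles (SD, n = 3 each). The order of the 4 groups was mated females, virgin females and then males, whose own groups overlapped (log2 fold change 0.081, edgeR adjusted p = 0.961). The call ended in 3 of 20 alternatives, where the adjusted p reached 0.130, among them the fit without mated replicate 1 (edgeR adjusted p = 0.0559).

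TR4938|c0_g2 had 9.66, 9.83 and 6.23 CPM in the mated libraries and 30.4, 23.9 and 22.9 CPM in the virgin ones, with no overlap. The means were 8.57 ± 2.03 and 25.7 ± 4.07 CPM (SD, n = 3 each) and the log2 fold change -1.59 (SE 0.252, edgeR adjusted p = 0.0205), or -1.68 without virgin replicate 3 (adjusted p = 0.0429). Virgin and mated males had 31.9 ± 6.68 and 23.7 ± 6.97 CPM (SD, n = 3 each), and their libraries overlapped. In this gene the mated females were the lowest of the 4 head and thorax groups. Its call ended in 5 of 20 alternatives, with an adjusted p of at most 0.0821. In edgeR the adjusted p was 0.0564, 0.0529 and 0.0821 without mated replicates 1, 2 and 3 and 0.0652 without virgin replicate 1.

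**Figure D4:**
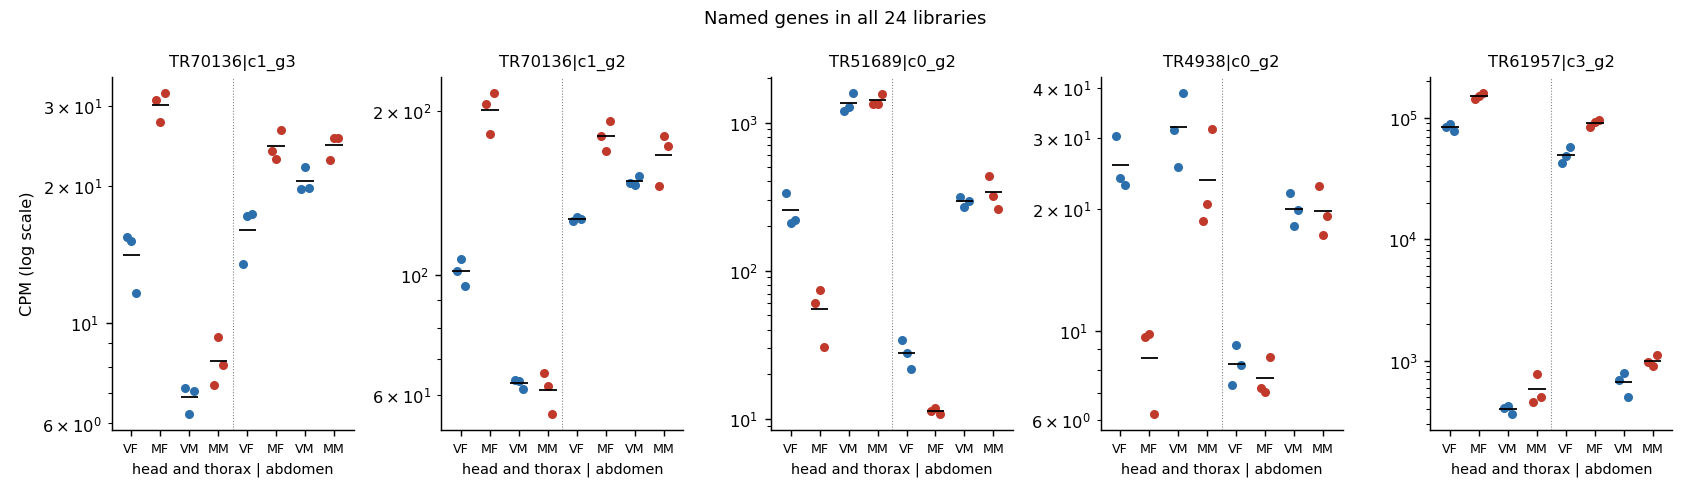
CPM (log scale, a separate axis for each gene) of the 5 named genes in all 24 libraries, with dots for libraries and bars for means of 3; V and M stand for virgin (blue) and mated (red), F and M after them for female and male, and the dotted line parts head and thorax from abdomen. The mated female dots lie above the virgin female dots on the left of the line for TR70136|c1_g3, TR70136|c1_g2 and TR61957|c3_g2 and below them for TR51689|c0_g2 and TR4938|c0_g2.

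Behind these, 24 of the 81 rises and 18 of the 41 falls met the same rule, which asks for a call with and without virgin replicate 3, at least 3 counts in every library and no overlap. The 10 largest such rises had log2 fold changes from 0.66 to 1.10 and the 10 largest such falls from -2.23 to -0.77. The third largest rise went from 27.2, 32.5 and 30.8 CPM in virgins to 53.3, 62.2 and 60.3 CPM in mated females, beside a male mean of 59.1 CPM (log2 fold change 0.95, SE 0.106, edgeR adjusted p = 0.00422). The third largest fall went from 42.9, 34.9 and 36.1 CPM in virgins to 16.1, 15.02 and 14.4 CPM in mated females, below the male mean of 27.1 CPM (log2 fold change -1.33, SE 0.0995, edgeR adjusted p = 0.000551). Both were free of overlap, and both kept their call in each fit that left out a library of the comparison. A fall of another kind was the fourth, from 38.9, 25.02 and 21.9 CPM to 12.1, 14.4 and 11.03 CPM (log2 fold change -1.20, SE 0.195, edgeR adjusted p = 0.0216). Males had less of it than either female group, 6.45 CPM, and virgin replicate 1 was well above the other virgin libraries.

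Among the 5 called genes with the highest CPM, 4 rose and 1 fell. The highest had 1794, 1704 and 1732 CPM in mated and 1273, 1330 and 992 CPM in virgin females (log2 fold change 0.54, SE 0.0996, edgeR adjusted p = 0.0385). Virgin replicate 3 was the lowest there, and without it the change was 0.41 (adjusted p = 0.0207). The gene that fell had 698, 766 and 526 CPM in mated and 1653, 1220 and 1144 CPM in virgin females (log2 fold change -1.02, SE 0.161, edgeR adjusted p = 0.0194). Males had more of it than either, 2855 CPM. The other 3 rose by 0.32, 0.56 and 0.55 on the log2 scale. Without virgin replicate 3 their edgeR adjusted p-values were 0.0559, 0.0288 and 0.0585, in the same order.

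The gene with the largest share of counts, TR61957|c3_g2, lay just outside the threshold. It took 14.3%, 15.2% and 15.9% of normalised counts in mated replicates 1, 2 and 3 and 8.45%, 8.93% and 7.84% in virgin replicates 1, 2 and 3. Mated libraries were all above virgin ones, with a ratio of means of 1.80 (exact two-sided permutation test, p = 0.1, the smallest that 3 against 3 can give). The log2 fold change was 0.85 (SE 0.173, edgeR adjusted p = 0.0503), and 0.79 without virgin replicate 3 (adjusted p = 0.134). It passed in 6 of 18 alternatives, over a range of adjusted p from 8.39e-05 to 0.179. In abdomens virgin females had 49322 ± 7443 CPM and mated females 90464 ± 6061 CPM (SD, n = 3 each; log2 fold change 0.93, edgeR adjusted p = 0.0052). Though on the female abdominal list, it was higher in female heads and thoraces, at 84082 ± 5447 CPM in virgins and 151586 ± 8061 CPM in mated females. Male heads and thoraces had 399 ± 31.7 CPM in virgins and 581 ± 174 CPM in mated beetles (SD, n = 3 each). In the 6 female head and thorax libraries 65.7% to 70.6% of its counts were assigned to the same transcript. Of the next 11 genes by share edgeR called 0, at adjusted p-values of 0.494 to 0.976, with 0 at an unadjusted p under 0.05 and 0 by DESeq2.

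Another 2 of the 41 falls, picked out after their values were seen, went to almost no counts. The first had 0, 0 and 0 counts in mated and 14, 42 and 11 counts in virgin replicates 1, 2 and 3 (edgeR adjusted p = 0.0410, and 0.0625 without virgin replicate 3). It was 22.0-fold lower in mated females if the mated group is given 3 counts, and the lower end of a 95% counting interval was 17.4-fold. The second had 0, 0 and 1 counts in mated and 34, 25 and 51 in virgin libraries, a ratio of 109 with a 95% counting interval from 19.1 to 4325 (adjusted p = 0.0128, and 0.0288 without virgin replicate 3). Such intervals cover counting error only. Both genes were also at 0 or 1 count in some of the 18 libraries outside the comparison, 9 for the first and 5 for the second, and reached 32 and 37 counts in others. Each shares its component with 1 other tested gene, whose log2 fold changes were 0.031 and 0.038 (edgeR adjusted p = 0.951 and 0.974).

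Over the whole table, the 122 called genes belonged to 121 components, and TR70136 was the component with 2. In 28 cases another gene of the component was tested without being called, 32 genes in all. Their median log2 fold change was -0.086 beside genes that rose and -0.0012 beside genes that fell, and 14 of 32 had the sign of the called gene. The transcript table gave 9 calls among 24428 transcripts tested (0.0368%), 5 higher (0.0205%) and 4 lower (0.0164%). Of these, 5 belonged to called genes and had the sign of the gene, and 4 belonged to genes that were not called. Without mated replicates 1, 2 and 3 there were 1, 2 and 2 transcripts called, and without virgin replicates 1, 2 and 3 there were 1, 16 and 5. Among the 94 called genes with several transcripts, 82 had the same leading transcript in mated and virgin females.

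Male heads and thoraces, whose libraries form no part of the female contrast, gave 9 genes higher (0.069%) and 1 lower (0.00766%) after mating among the same 13051. Both contrasts came from the same fit, with a shared filter, scaling and estimate of each gene's spread. The p-values of a gene in the 2 sexes were therefore not independent. Of the 122 genes called in females edgeR called 0 in males. At an unadjusted p under 0.05 in males were 16 of the 81 (19.8%) and 7 of the 41 (17.1%), against 9.63% of all genes tested, and DESeq2 called 7 and 0, beside 196 of all 13051. Without virgin female replicate 3, edgeR called 1 of the 24 rises and 0 of the 38 falls in males, beside 14 of all 13535. The median male log2 fold change was 0.021 for the genes that rose in females and 0.052 for those that fell, against -0.019 over all genes. Of the 10 genes called in males edgeR called 0 in females, against 0.935% of all genes. In females 5 of the 10 (50%) had an unadjusted p under 0.05 and DESeq2 called 2 (20%), against 11.6% and 3.87% of all genes. Their female log2 fold changes ran from -0.37 to 0.59.

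A test of whether the mating difference itself differed between the sexes, the sex-by-mating interaction, called 14 of 13051 genes (0.107%), with 1226 at an unadjusted p under 0.05. The effect was more positive in females in 8 and more negative in 6. Of the 14, 7 were among the genes that rose in females and 3 among those that fell, and 3 were called in males. The interaction uses the libraries of both comparisons, so this overlap was partly built in. TR70136|c1_g2 was one of the 14, with a female effect 1.02 higher on the log2 scale (SE 0.121, edgeR adjusted p = 0.0207), beside a male effect of -0.031 (adjusted p = 0.948). The difference was not called for TR70136|c1_g3 (0.81, SE 0.197, adjusted p = 0.192), TR51689|c0_g2 (-2.31, SE 0.409, adjusted p = 0.0877), TR4938|c0_g2 (-1.18, SE 0.345, adjusted p = 0.304) or TR61957|c3_g2 (0.29, SE 0.244, adjusted p = 0.763). The count was 15 without virgin female replicate 3. It fell to 1 without mated female replicate 1, to 7 without mated female replicate 3 and to 6 without virgin female replicate 2. Without mated male replicates 1, 2 and 3 it was 0, 3 and 4, and without virgin male replicates 1, 2 and 3 it was 1, 0 and 0.

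Where the called genes stand between the sexes was read from abdomens, since a sex difference in heads and thoraces would reuse the female libraries that chose them. Averaged over virgin and mated beetles, 29 of the 41 falls (70.7%) were lower in female than in male abdomens and 8 (19.5%) were higher, with a median of -1.33 on the log2 scale, females minus males. Of the rises 44 (55.7%) were lower and 19 (24.1%) higher in female abdomens, with a median of -0.28. Among all genes tested in both body parts the shares were 38.6% lower and 42.2% higher and their median was 0.049, and among the 14563 genes tested in abdomens they were 41.3% and 39.4%. Without virgin head and thorax replicate 3, 29 of 38 falls and 15 of 24 rises were lower in female abdomens, and 5 and 5 were higher. Over all genes 38.7% were then lower and 41.7% higher. With library size alone 66 of 124 falls and 26 of 57 rises were lower and 41 and 23 higher, beside 29.3% lower and 52.5% higher over all genes.

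The female abdomens, sequenced in other libraries of the study though possibly from the same beetles, moved the same way for many of these genes. Mated female abdomens had 1191 genes higher (8.18%) and 915 lower (6.28%) among 14563 tested. Among the genes also tested in heads and thoraces these shares were 9.28% and 7.35%. Of the 81 genes that rose in heads and thoraces, 79 were tested there, and 31 rose, 1 fell and 66 had a positive change. The median was 0.23, where all genes had 0.0026. Of the 41 that fell, 24 fell, 2 rose and 33 had a negative change, with a median of -0.35. The 31 shared rises are 38.3% of the head and thorax list and 2.60% of the abdominal one, and the 24 shared falls are 58.5% and 2.62%. Taken from the abdominal side, the genes that rose there had a median head and thorax change of 0.045 and were positive in 61.0%, those that fell had -0.10 and were positive in 31.2%, and over all genes the values were -0.014 and 47.3%. Without virgin replicate 3 the medians were 0.021, -0.021 and -0.0074. There 15 of 24 rises and 10 of 38 falls were called in the same direction in the abdomen, where all genes had 9.14% higher and 7.20% lower. With library size alone 21 of 57 rises and 55 of 124 falls were called in the same direction, where all genes had 5.16% higher and 18.2% lower.

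**Figure D5:**
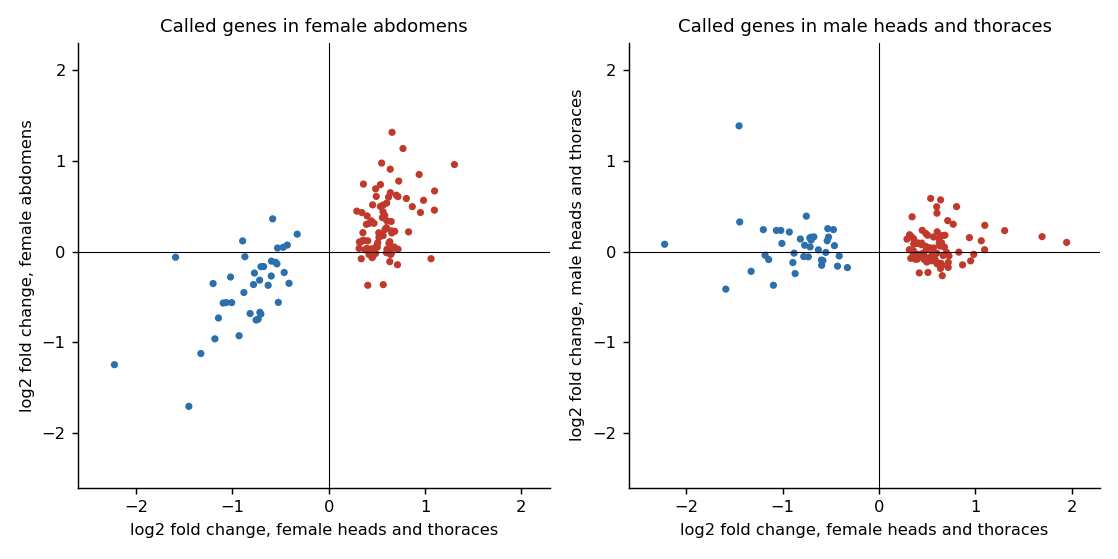
Log2 fold change after mating in female heads and thoraces (horizontal) against that in female abdomens (left, vertical, 117 of the 122 called genes drawn) and in male heads and thoraces (right, vertical, 120 drawn), with red for genes that rose and blue for genes that fell. The 5 and 2 genes not drawn were untested in the abdomen or over 3 log2 units from 0 on an axis; on the left most red points lie above and most blue points below 0, and on the right both colours lie on both sides of 0.

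For named genes the abdomen gave both pictures. TR70136|c1_g2 rose in the abdomen, where virgins had 127 ± 0.834 CPM and mated females 180 ± 11.6 CPM (SD, n = 3 each), by 0.56 on the log2 scale (edgeR adjusted p = 0.00184), and its rise was 0.48 larger in heads and thoraces (SE 0.111, adjusted p = 0.0296). TR70136|c1_g3 rose there too, from 15.99 ± 2.20 to 24.4 ± 1.86 CPM (log2 fold change 0.67, adjusted p = 0.00398), and the difference of 0.49 between the parts was not called (adjusted p = 0.139). For TR51689|c0_g2 virgins had 27.9 ± 6.19 and mated females 11.3 ± 0.541 CPM, a fall (log2 fold change -1.24, adjusted p = 0.0061), with a difference of -0.91 between the parts (adjusted p = 0.245). In TR4938|c0_g2 the abdominal groups overlapped, at 8.28 ± 0.949 and 7.62 ± 0.871 CPM (log2 fold change -0.062, adjusted p = 0.845), and the difference of -1.46 between the parts was called (SE 0.306, adjusted p = 0.0195).

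The body-part-by-mating interaction in females, fitted on all 24 libraries, called 340 of 15558 genes (2.19%), 210 with a more positive effect in heads and thoraces and 130 with a more negative one. It included 31 of the 81 rises and 3 of the 41 falls. Of the 340, 253 were called in the abdominal comparison, 18 were on the female abdominal list, and 13 were among the 24 genes that stood out in virgin replicate 3. Over all 14563 genes tested in abdomens, 8.18% were called higher and 6.28% lower. The interaction uses the libraries of both comparisons, virgin replicate 3 among them, so these overlaps were partly built in. Without virgin head and thorax replicate 3, 440 genes were called. Leaving out mated head and thorax replicates 1, 2 and 3 gave 194, 169 and 185, mated abdomen replicates 1, 2 and 3 gave 196, 93 and 193, and virgin abdomen replicates 2 and 3 gave 184 and 141.

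Body part was likewise read from males, whose libraries took no part in the female contrast, though their heads and thoraces were in its fit. At least 2-fold higher in male head and thorax than in male abdomen, at an edgeR adjusted p of 0.05 or less, were 29 of the 81 rises (35.8%) and 11 of the 41 falls (26.8%), against 14.9% of the genes tested in heads and thoraces and 12.9% of the 15558 tested over all libraries. As far lower were 8 rises (9.88%) and 2 falls (4.88%), against 9.78% and 16.5%. Without virgin replicate 3, 7 of 24 rises and 15 of 38 falls were higher in head and thorax and 4 and 1 lower. With library size alone 21 of 57 rises and 40 of 124 falls were higher and 6 and 3 lower.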

How the data were processed

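Head and thorax RNA of mated females was compared with that of virgins, with the study's other libraries as context; groups came from the labels' source names. The values deposited by the authors are expected counts, not normalised, 1 column per library, with 14.1% of the values in the gene table not whole. The submitters' processing notes name Bowtie 0.12.6, Trimmomatic 0.3, cutadapt 1.2.1 and FastQC 0.11.2. The counting program, the reference and the use of strand are not stated in those notes or the labels, so near-identical, overlapping and antisense genes may share reads. Per the labels' protocols, Qiagen's RNeasy and a stranded TruSeq mRNA kit were used.

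Estimated counts were rounded. In R 4.3.3, edgeR 4.0.16 was fitted to the 12 head and thorax libraries (TMM, filterByExpr, robust quasi-likelihood test, 1 mean per group, Benjamini-Hochberg over all genes tested, threshold 0.05); the body part interaction used all 24. The standard error is the absolute log2 fold change over the square root of F. CPM use unrounded counts. The sex difference in abdomens and the body part difference in males weight virgin and mated groups equally, and neither contrast includes any of the 6 libraries. The sex difference was fitted on the 12 abdomen libraries. The body part difference in males came from the fit of all 24 libraries. Male heads and thoraces were also in the fit that called the genes, so filter, scaling and spread were shared there. Summed lists were tested with exact two-sided permutation tests. At the depth of these libraries a gene at 1 CPM rests on about 8 or 9 counts. Named were the 2 rises and 2 falls with the largest change that were called with and without virgin replicate 3, had at least 3 counts in each of the 6 libraries and did not overlap, plus the gene with the highest mean CPM. Alternatives used DESeq2 1.42.0, limma 3.58.1 (voom) and other scalings, filters and libraries. The fits were tested on simulated data. The comparison, lists and tests were chosen with earlier results of these data known. The runs without virgin replicate 3 on an unchanged gene set, the context counts without it or with library size only, the female list without its gene with the largest share and the use of abdomens and males for the sex and body part context were added after seeing the data.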

Additional observations from a re-analysis of the deposited data

Results flagged for a closer look

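Of the named genes, TR70136|c1_g2 was called for a mating effect that differed between the sexes in heads and thoraces, by 1.02 on the log2 scale (female minus male). Without mated male replicate 1, or without virgin male replicate 2 or 3, that test called 0 genes. The effect of TR70136|c1_g2 also differed between the body parts of females, by 0.48 (head and thorax minus abdomen). For TR4938|c0_g2 the difference between the body parts was -1.46, with no call in the abdomen alone. Over all genes tested, the sexes differed in 14 and the female body parts in 340, and both counts move with single libraries.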

How the results depend on the processing

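The 81 higher and 41 lower genes were 122 in all. Library size only gave 181 (57 and 124) and moved the median of all genes from -0.014 to -0.088. DESeq2 gave 505 (248 and 257), the fit of all 24 libraries 281 (157 and 124), and the fit of the 6 libraries 40 (24 and 16). Without virgin replicate 3, on an unchanged gene set, it was 66 (26 and 40). Leaving out each library gave 26 to 64 calls (20 to 41 higher, 6 to 38 lower). The remaining alternatives, except the replicate block, stayed within 1.5 times of 122. Of the 122, 96 were shared with library size only and 120 with DESeq2.

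Replicate numbers showed no sign of pairing: the deviations of same-numbered mated and virgin libraries had correlations of 0.027, 0.0088 and -0.014. Between same-numbered head and thorax and abdomen libraries they were 0.024, -0.022 and 0.019 (mated) and -0.0035, -0.028 and -0.045 (virgin). The body parts may come from the same beetles, which such correlations cannot exclude. With the replicate block 36 genes were called (27 and 9), 35 of them shared, and the sex interaction gave 1 and the transcripts 1.

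The sex interaction gave 58 with library size only, 268 with DESeq2, and 0 to 15 with a library left out. The body part interaction gave 207 without a low-count filter, 855 with DESeq2, and 93 to 440 with a library left out. Transcripts gave 21 with library size only and 1 to 16 with a library left out. The log2 ratio of the list of both abdomens was -0.39, but -1.26 with a 64-fold limit and -1.16 from 200 CPM up, and the male abdominal list moved from 0.13 to 0.76 with a 64-fold limit. The causes were not tested. Depth limits low genes, and a p that missed the threshold does not show equality.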
